A study of Rana omeimontis with 6 samples.

Results

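Transcripts described as digestive enzymes of the pancreas were followed in liver RNA of Rana omeimontis tadpoles. The matrix of the study lists 121726 transcript clusters, here called features, and 56 of them had a leading protein description that named a trypsin or chymotrypsin, an elastase, carboxypeptidase A or B, alpha-amylase, a pancreatic product, colipase or bile salt-activated lipase and did not name an inhibitor. Of these 56 features, 45 reached 1 FPKM or more in at least 3 libraries and are the members described here, among 40548 features of all kinds that did so. FPKM divides the fragments of a transcript by its length and by the size of the library, so levels can be set side by side between genes. The study compared 3 liver libraries taken after ontogenetic fat accumulation with 3 taken before it, all from tadpoles of the same nature reserve, with no treatment or genetic change named in the labels. The question was how fat stored in the liver relates to growth. The labels do not say whether each library is a separate animal or a pool, so p-values reflect the scatter of these samples alone, which can be technical. Means are given ± SD over the 3 libraries of a stage, and exact permutation tests are two-sided, for which 3 against 3 libraries allow no p below 0.1.

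The exocrine pancreas is built of acinar cells that make and store digestive enzymes, mostly as inactive zymogens. Enteropeptidase of the gut wall turns trypsinogen into trypsin, and trypsin then activates the chymotrypsins, elastases and carboxypeptidases. Trypsin cuts proteins after basic residues, chymotrypsins after large hydrophobic ones and elastases mostly after small ones. Carboxypeptidases A and B trim the ends of the resulting peptides, amylase cuts starch, and pancreatic lipase with its cofactor colipase splits dietary fat. In frogs the pancreas lies along the bile duct next to the liver, and the liver itself is known for plasma proteins.

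The libraries held transcripts of hepatocytes and of the exocrine pancreas. Summed FPKM was 1358665 to 1382059 after and 1396950 to 1442121 before fat accumulation. Read totals were not at hand, and so each library's depth is unknown. Low FPKM values were most often 1.03 to 1.05 times those of after replicate 1, across the 5 remaining libraries, which bears on relative depth only. Of 16 hepatocyte markers 13 were measured, with a summed level of 12501 to 13744 FPKM after and 8999 to 11426 FPKM before. The 45 digestive enzyme features summed to 361699 to 466297 FPKM after and 310015 to 496926 FPKM before. That is 26.4, 28.6 and 37.3 times the hepatocyte list in the after libraries and 47.2, 55.2 and 27.1 times in the before libraries. The ratio averaged 30.7 ± 5.78 after and 43.2 ± 14.5 before (exact permutation p = 0.3, adjusted over 6 ratios p = 0.45). Against the list of acinar markers other than the members, the ratio was 53.3, 60.8 and 67.3 in the after libraries and 40.1, 48.2 and 40.6 in the before libraries, without overlap and in the other direction (exact permutation p = 0.1, adjusted over 6 ratios p = 0.2). A single feature, described as phospholipase A2, made up 3441 of that list's mean sum of 6554 FPKM after and 5977 of 9558 FPKM before. The size of this ratio therefore depends mostly on that feature. With it left out of the list, the ratio was still higher in every after library than in every before library, by a small margin. The labels do not say how the liver was separated from the pancreas, and the part of pancreas tissue taken along at dissection in any share or difference below was not tested. In bulk RNA, fewer acinar cells and less enzyme RNA per cell cannot be told apart.

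Digestive enzymes led the transcripts of these libraries by mean level. They held 26.2%, 26.6% and 34.0% of the summed FPKM in the after libraries and 30.4%, 34.5% and 22.2% in the before libraries. The stages overlapped: the mean share was 29.0% ± 4.41 after and 29.0% ± 6.25 before (exact permutation p = 1). The difference was -0.0519 percentage points with all libraries and lay between -3.46 and 2.67 with any single library left out, so its direction rested on single libraries. The 4 features with the highest mean of the whole matrix were members, and so were 16 of the 100 highest.

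**Figure D1:**
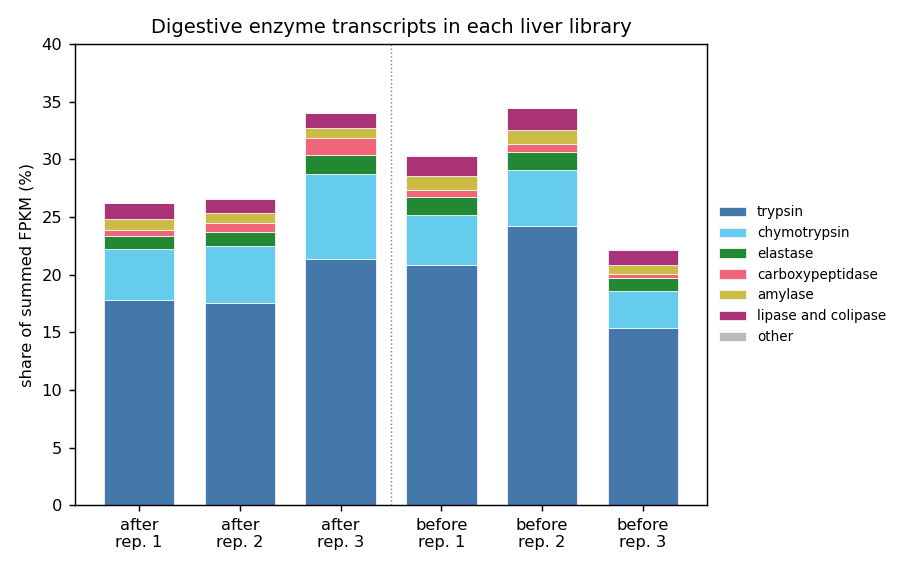
Share of each library's summed FPKM (percent, bars from 0) held by the digestive enzyme features, stacked by enzyme class, for the 3 after libraries on the left and the 3 before libraries on the right. The total lies between 22.2% and 34.5%, trypsins fill most of every bar, and the stages overlap.

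Trypsins took most of this share. The 8 trypsin features held 18.9% ± 2.12 of summed FPKM after and 20.2% ± 4.45 before (exact permutation p = 0.7). The 8 chymotrypsin features held 5.60% ± 1.59 after and 4.10% ± 0.844 before (exact permutation p = 0.2). The 7 carboxypeptidase features held 0.942% ± 0.430 after and 0.558% ± 0.132 before (exact permutation p = 0.3). Elastases, with 8 features, held 1.29% ± 0.297 after and 1.41% ± 0.282 before, and the 4 amylase features held 0.892% ± 0.0657 after and 1.09% ± 0.276 before (exact permutation p = 0.8 and 0.4). Lipases and colipase, with 7 features, held 1.29% ± 0.0290 after and 1.62% ± 0.308 before (exact permutation p = 0.3). Adjusted over 7 classes, no exact p was below 0.525. A single trypsin feature held 46.5% ± 0.457 of the members' own sum after and 40.6% ± 2.77 before, and the 10 highest members held 92.1% ± 0.439 after and 90.0% ± 0.581 before.

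Single features differed between the stages. Of the 45 members, 4 rose and 5 fell after fat accumulation (limma on log2(FPKM + 1), Benjamini-Hochberg adjusted p under 0.05 over all features tested), where 4.64% of all features were called higher and 4.0% lower. The 4 increases were all carboxypeptidase features, among 7 measured in that class. The 5 decreases came from the chymotrypsins (2), trypsins (1), elastases (1) and colipase (1). Of the 36 not called, 11 had an unadjusted p under 0.05. Over all 45 members 20 did, against 10788 of the 40548 features tested. Together 9 of 45 members were called, against a background of 8.64%. The share of calls among features of any kind varied with the level. Among the 795 features with a mean of 100 FPKM or more 19.2% were called, and 8 of the 33 members at that level were. Among the 173 features with a mean of 1000 FPKM or more 6.94% were called, and 5 of the 24 members were. The median log2 fold change, after minus before, was -0.25 over the members and -0.08 over all features tested, and it was -0.32 over the 38 members that are not carboxypeptidases. The stages did not overlap in 19 of 45 members, 7 higher and 12 lower, against 32.5% of all features (15.7% higher and 16.8% lower). Of the 9 calls, 3 held with each library left out in turn. The count fell to 1 higher and 2 lower without after replicate 2, to 3 higher and 2 lower without after replicate 1 or 3, and to 3 higher and 3 lower without before replicate 1 or 2. The share called over all features fell alongside, to 4.60%, 1.88% and 1.70% when after replicate 1, 2 or 3 was dropped and to 2.10% and 3.33% when before replicate 1 or 2 was.

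**Figure D2:**
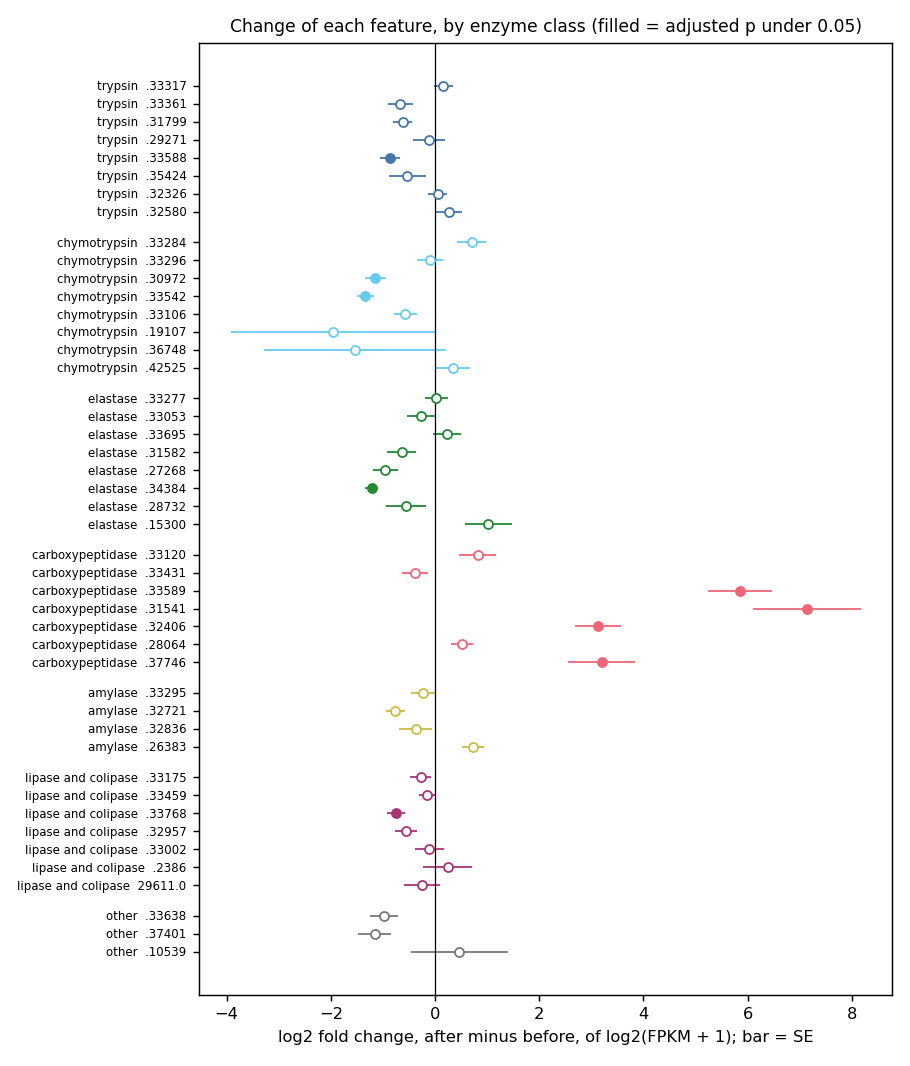
Log2 fold change of each of the 45 features (x axis, on log2(FPKM + 1), after minus before, with bars for standard errors), grouped by class from the most to the least abundant and named by the end of the cluster number. Filled symbols passed an adjusted p of 0.05: 4 carboxypeptidases lie between 3.13 and 7.14, and the 5 filled symbols below 0 lie between -1.34 and -0.74.

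The carboxypeptidases carried the largest of the called changes. Carboxypeptidase B removes basic residues from the ends of peptides that trypsin has cut, and 3 features were described as this pancreatic enzyme. The feature named carboxypeptidase B1 (Cluster-8914.33589) measured 699, 2033 and 3639 FPKM in the after libraries and 44.3, 19.01 and 28.6 FPKM in the before libraries. Every after library stood above every before library, and after replicate 3 was the highest. Its log2 fold change was 5.85, with an SE of 0.610 and an adjusted p of 0.00622. It held without each library in turn, at an adjusted p of 0.0326 or less.

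A second carboxypeptidase B feature (Cluster-8914.31541) measured 194, 347 and 1805 FPKM in the after libraries and 4.47, 7.01 and 0 FPKM in the before libraries. Its log2 fold change of 7.14, with an SE of 1.04 and an adjusted p of 0.0145, was the highest of the 40548 features tested. The after libraries differed widely among themselves here, and the call was lost without after replicate 2 (adjusted p = 0.0518, the highest of the 6 fits that each left out 1 library).

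The third carboxypeptidase B feature (Cluster-8914.33431) was the most abundant of the 3 in every library of both stages and did not pass. It measured 2544, 3189 and 4081 FPKM in the after libraries and 5357, 4261 and 3200 FPKM in the before libraries, which overlapped (-0.38, adjusted p = 0.384). The 2 features that rose made up 26.0%, 42.7% and 57.2% of all carboxypeptidase B FPKM in the after libraries and 0.902%, 0.607% and 0.887% in the before libraries. The sum over the 3 features was 3437, 5569 and 9526 FPKM after and 5405, 4287 and 3229 FPKM before, with a ratio of means of 1.43 (exact permutation p = 0.4, adjusted over 10 enzymes p = 0.667). When features with the same leading description were summed before the fit, only carboxypeptidase B1 and the carboxypeptidase A2 entry of Cluster-8914.32406 stayed called among the carboxypeptidases, since the second carboxypeptidase B feature shares its description with the third.

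Carboxypeptidase A2, which removes bulky hydrophobic residues, also rose in its minor features. Cluster-8914.32406 measured 99.4, 171 and 287 FPKM in the after libraries and 23.9, 22.3 and 11.8 FPKM in the before libraries, which gave 3.13 as log2 fold change, with an SE of 0.437 and an adjusted p of 0.0131. Cluster-8914.37746 measured 78.4, 77.2 and 162 FPKM after and 18.5, 15.7 and 3.00 FPKM before, a change of 3.20 with an SE of 0.640 (adjusted p = 0.0316). Neither overlapped between the stages. The first lost its call without after replicate 2 (adjusted p = 0.0548). The second kept it in 1 of 6 such fits, that without before replicate 3, and reached its highest adjusted p, 0.105, without after replicate 3.

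The dominant carboxypeptidase A2 feature (Cluster-8914.33120) measured 4263, 5458 and 9353 FPKM in the after libraries and 3604, 4659 and 2375 FPKM in the before libraries. The stages overlapped and the feature did not pass (0.82, adjusted p = 0.199). The minor pair made up 4.31% ± 0.290 of the carboxypeptidase A2 sum after and 0.863% ± 0.276 before. Carboxypeptidase B2 (Cluster-8914.28064) met the naming rule but is a plasma enzyme that the liver makes and that slows the breakdown of clots. It measured 61.6 to 85.8 FPKM after and 43.2 to 58.8 FPKM before, without overlap and without a call (0.52, adjusted p = 0.164).

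**Figure D3:**
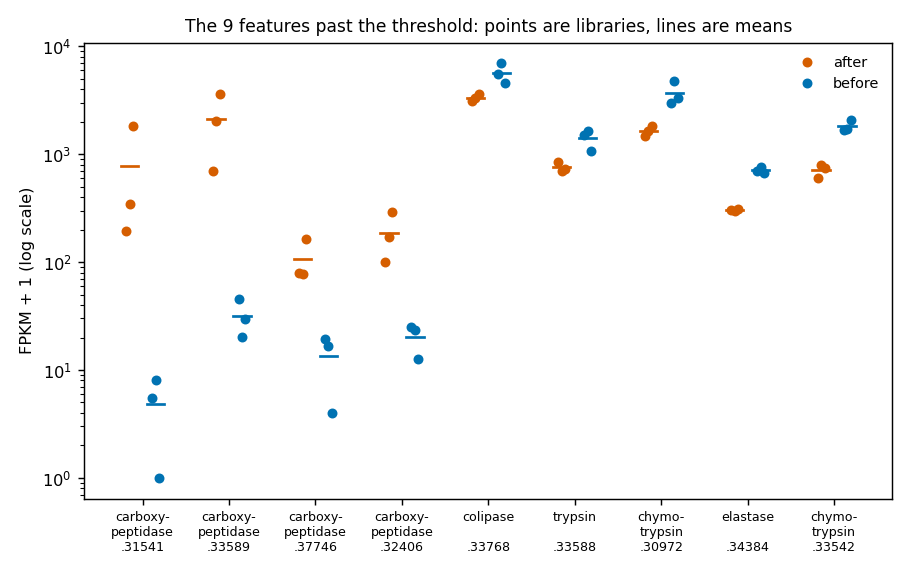
FPKM + 1 on a log axis of the 9 features past the threshold, with a point per library (after in orange on the left, before in blue on the right of each pair) and a line at the mean. The 4 carboxypeptidases are higher in every after library, and colipase, trypsin, elastase and the 2 chymotrypsins are lower in every after library.

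Among the chymotrypsins 2 minor features fell, while the dominant one was higher in every after library without a call. Chymotrypsin B1 (Cluster-8914.33284), the third most abundant feature of the matrix, measured 47454, 50541 and 77123 FPKM in the after libraries and 41289, 42412 and 24265 FPKM in the before libraries. The stages did not overlap, but the change did not pass (0.71 ± 0.278 SE, adjusted p = 0.164). A second feature with the same description (Cluster-8914.30972) measured 1487, 1637 and 1805 FPKM after and 2997, 4785 and 3329 FPKM before. It fell by 1.15 in log2 terms (adjusted p = 0.0221) and kept its call in 2 of 6 fits with a library left out, those without before replicate 1 or 2. The highest adjusted p was 0.0798, without after replicate 2. Summed before the fit, the 2 features with this description were not called and the change was above 0 (0.60, adjusted p = 0.209).

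Chymotrypsinogen B2 (Cluster-8914.33542), a zymogen of the same family, measured 606, 797 and 747 FPKM in the after libraries and 1673, 1697 and 2060 FPKM in the before libraries. It fell by 1.34 in log2 terms, with an SE of 0.161 and an adjusted p of 0.00908, and stayed past the threshold without each library (at most 0.0408). The other chymotrypsinogen B2 feature (Cluster-8914.33106) measured 210 to 325 FPKM after and 318 to 429 FPKM before and overlapped (-0.57, adjusted p = 0.165). The chymotrypsin B sum over 4 features was 49871, 53185 and 79886 FPKM after and 46277, 49323 and 30000 FPKM before (exact permutation p = 0.1, the smallest possible, adjusted over 10 enzymes p = 0.5). The dominant feature made up 95.6% ± 0.840 of that sum after and 85.4% ± 4.20 before.

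**Figure D4:**
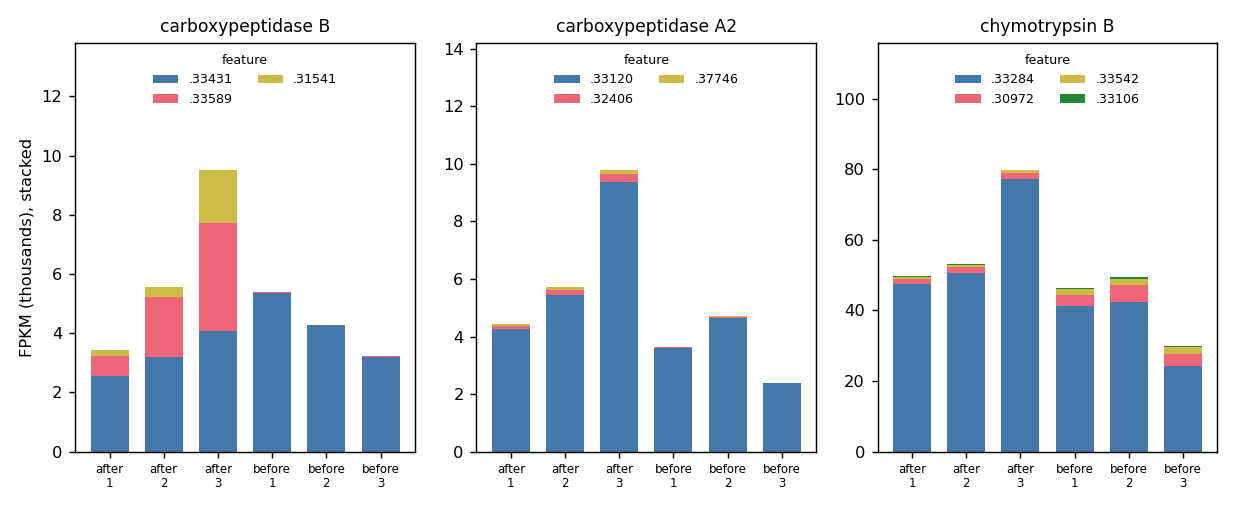
Stacked FPKM (in units of 1000 FPKM, bars from 0) of the features that share an enzyme name, by library, after libraries left and before libraries right. In carboxypeptidase B the features Cluster-8914.33589 and Cluster-8914.31541 appear in the 3 after bars and are nearly invisible before, while in chymotrypsin B the minor features Cluster-8914.30972 and Cluster-8914.33542 are thicker before.

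Chymotrypsin C regulates both the activation and the breakdown of trypsinogen in mammals. Its main feature (Cluster-8914.33296) measured 11329, 14158 and 21581 FPKM in the after libraries and 15110, 19604 and 14180 FPKM in the before libraries, with a log2 fold change of -0.09 (adjusted p = 0.852). The direction of that small difference turned with quantile normalization and without after replicate 1 or before replicate 2. Minor chymotrypsin C features followed single libraries instead of the stages. Cluster-8914.19107 stood at 179.7 FPKM in before replicate 2 and 10.2 in after replicate 2, and at 0, 0, 0 and 2.68 in the other 4 libraries. Cluster-8914.36748 stood at 133.7 and 17.6 FPKM in the same libraries and between 0 and 2.62 FPKM elsewhere. Neither passed (adjusted p = 0.581 and 0.630), and the lone chymotrypsin A-like feature (Cluster-8914.42525) lay at 3.34 to 4.54 FPKM after and 1.79 to 5.07 before.

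Trypsins were the highest of all transcripts and mostly did not pass. The leading trypsin feature (Cluster-8914.33317) measured 168258, 166766 and 219212 FPKM in the after libraries and 164788, 198660 and 135422 FPKM in the before libraries. The stages overlapped (0.16, adjusted p = 0.629). The second, described as trypsin-3-like (Cluster-8914.33361), measured 67472, 62817 and 65199 FPKM after and 116206, 136047 and 70068 FPKM before. All after libraries lay below all before libraries, and the change did not pass (-0.67, adjusted p = 0.134). Before replicate 3 stood closest to the after libraries, and without it the change was -0.95 and passed (adjusted p = 0.0245, in a range of 0.0245 to 0.491 over all settings).

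The trypsin that passed was the feature described by a Xenopus laevis trypsin (Cluster-8914.33588). It measured 852, 690 and 724 FPKM in the after libraries and 1494, 1624 and 1070 FPKM in the before libraries, and fell by 0.87 in log2 terms (adjusted p = 0.0421). The call was kept in 1 of 6 fits with a library left out, that without before replicate 3, and the highest adjusted p was 0.135, without after replicate 2. A further trypsin-like feature (Cluster-8914.31799) measured 4681 to 6349 FPKM after and 6512 to 8926 FPKM before, without overlap (-0.62, adjusted p = 0.0893). The other 4 trypsins lay between 147 and 3371 FPKM in all libraries, overlapped between the stages and had log2 fold changes of -0.53 to 0.27. Within the trypsin sum the leading feature made up 68.3%, 69.9% and 74.9% in the after libraries and 55.7%, 56.8% and 62.9% in the before libraries.

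Elastases cut proteins after small residues, and their 1 call was a feature of type 3B. The called feature, elastase 3B (Cluster-8914.34384), measured 304, 297 and 311 FPKM in the after libraries and 691, 755 and 669 FPKM in the before libraries. It varied little within a stage and fell by 1.21 in log2 terms, with an SE of 0.124 and an adjusted p of 0.00605, which stayed at or under 0.0387 with any single library left out. Summed before the fit with Cluster-8914.31582, which has the same description, it was not called (-0.76, adjusted p = 0.0863). Another elastase 3B feature (Cluster-8914.27268) measured 779 to 1237 FPKM after and 1574 to 2525 FPKM before and missed the threshold (-0.95, adjusted p = 0.0582), which it passed with a filter of 5 FPKM (adjusted p = 0.0359, in a range of 0.0359 to 0.157 over all settings). The other elastase 3B features (Cluster-8914.31582 and Cluster-8914.15300) overlapped between the stages (-0.64 and 1.03, adjusted p = 0.198 and 0.212). Summed over its 4 features, elastase 3B measured 2348, 2388 and 3342 FPKM after and 5011, 5536 and 3789 FPKM before (exact permutation p = 0.1, the smallest possible, adjusted over 10 enzymes p = 0.5).

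The more abundant elastase 1 and 2A features overlapped between the stages. Elastase 1 (Cluster-8914.33277) measured 6254 to 9180 FPKM after and 5975 to 9402 FPKM before, with a log2 fold change of 0.02 (adjusted p = 0.962) that was below 0 without after replicate 3, before replicate 1 or before replicate 3. Its second feature (Cluster-8914.33053) measured 3329 to 4925 FPKM after and 3202 to 6326 FPKM before (-0.26, adjusted p = 0.604). Elastase 2A (Cluster-8914.33695) measured 2654 to 4836 FPKM after and 2279 to 3289 FPKM before (0.23, adjusted p = 0.637, and -0.042 without after replicate 3).

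Amylase gave no limma call in 4 features, of which 2 had an unadjusted p under 0.05, against 10788 of the 40548 features tested. The main one, pancreatic alpha-amylase (Cluster-8914.33295), measured 10721, 8510 and 8727 FPKM in the after libraries and 12672, 13285 and 7567 FPKM in the before libraries (-0.23, adjusted p = 0.598). Before replicate 3 lay below all after libraries, so that the stages overlapped. A feature described as amylase 2B (Cluster-8914.32721) measured 1251, 1504 and 1841 FPKM after and 2634, 2912 and 2211 FPKM before, without overlap (-0.76, adjusted p = 0.0525). With a filter of 5 FPKM, which leaves fewer features to adjust over, it passed (adjusted p = 0.0311, in a range of 0.0311 to 0.147 over all settings). The rarest amylase feature (Cluster-8914.26383) was higher in every after library without a call, at 54.4 to 83.1 FPKM after and 35.9 to 42.6 FPKM before (0.73, adjusted p = 0.0845). A second amylase 2B feature (Cluster-8914.32836) measured 1119 to 1663 FPKM after and 1055 to 2378 FPKM before (-0.37, adjusted p = 0.517).

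Of the fat-digesting group only colipase passed. Colipase (Cluster-8914.33768), which anchors pancreatic lipase to bile-coated fat droplets, measured 3100, 3336 and 3591 FPKM in the after libraries and 5561, 6926 and 4526 FPKM in the before libraries. It fell by 0.74 in log2 terms, with an SE of 0.176 and an adjusted p of 0.0493, the highest of the 9 calls. It was called as reported, with the 5 FPKM filter, without before replicate 3 (adjusted p = 0.0401) and with features summed by description (adjusted p = 0.0477), and under no other setting tried. Its adjusted p over all settings was 0.0281 to 0.157, and without after replicate 2 it was 0.140.

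Pancreatic lipase itself did not pass. Its leading feature (Cluster-8914.33175) measured 9134, 7987 and 7682 FPKM in the after libraries and 11115, 12065 and 7371 FPKM in the before libraries (-0.27, adjusted p = 0.451). The feature named pancreatic lipase (Cluster-8914.33459) measured 4193 to 5102 FPKM after and 4210 to 5885 FPKM before (-0.15, adjusted p = 0.621). The lipase sum over 4 features was 14353 ± 634 FPKM after and 17286 ± 3609 FPKM before (exact permutation p = 0.4, adjusted over 10 enzymes p = 0.667). Bile salt-activated lipase, an enzyme of broad specificity, was rare, with 2.04 to 2.96 FPKM after and 0.91 to 4.95 FPKM before. Pancreatic lipase-related protein 2, known in mammals for splitting plant galactolipids, had the lowest mean of all members, with 0.45 to 1.47 FPKM after and 0.67 to 1.83 FPKM before.

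The 3 members outside these classes were caught by the word pancreatic. The pancreatic progenitor cell differentiation and proliferation factor (Cluster-8914.33638), known from zebrafish exocrine pancreas development, measured 372, 319 and 232 FPKM in the after libraries and 629, 436 and 781 FPKM in the before libraries. The stages did not overlap and the change did not pass (-0.99, adjusted p = 0.0712). It passed under 4 settings, the 5 FPKM filter, both other ways of scaling the libraries and quantile normalization, with adjusted p from 0.0339 to 0.185 over all settings. Pancreatic hormone (Cluster-8914.37401), an islet peptide, measured 58.2, 25.2 and 42.2 FPKM after and 87.4, 77.4 and 106 FPKM before, without overlap (-1.16, adjusted p = 0.0707). It passed with the 5 FPKM filter and with quantile normalization (adjusted p = 0.0454 and 0.0467, in a range of 0.0454 to 0.171 over all settings). A chitinase described from toad pancreas (Cluster-8914.10539) measured 1.60 to 10.9 FPKM after and 0.17 to 11.4 FPKM before.

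The 11 matching features below the filter were rare. They included a pair described as carboxypeptidase A1, at 0.39, 2.08 and 2.5 FPKM and at 0.22, 1.14 and 1.69 FPKM in the after libraries and at 0 to 0.65 FPKM in the before libraries. A feature described as GP2, a membrane protein of zymogen granules, reached 7.80 FPKM in before replicate 3 and at most 0.94 FPKM elsewhere. A pair described as mouse metalloelastase, a macrophage enzyme, stood at 0 in the 3 after libraries and in before replicate 1 and at 0.87 to 1.26 FPKM in before replicates 2 and 3.

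Single libraries were high or low for many members at once. Before replicate 3 was the lowest before library for 35 of 45 members, and before replicate 2 the highest for 25. Before replicate 3 also stood apart over all features, with 49148 at 1 FPKM or more against 37208 to 42276 in the other libraries. After replicate 3 was the highest after library for 24 members. These counts were not made over all features, and members of the same library are not independent of each other. Over the 33 members with a mean of at least 100 FPKM the median coefficient of variation was 21.8% after and 24.3% before. Xenopus supplied the leading description of 31 members, and the 45 members shared 32 distinct descriptions. Features with the same name may be related genes, alleles or fragments of a transcript, they can share reads, and which of these applies was not tested.

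Acinar markers other than the members were also present. Of 20 list genes 13 were measured, by 15 features, and their sum was 6794, 5945 and 6924 FPKM in the after libraries and 10736, 10300 and 7638 FPKM in the before libraries. The stages did not overlap (exact permutation p = 0.1, the smallest possible, adjusted over 6 lists p = 0.12). In all, the sums of 5 of the 6 marker lists did not overlap, with the same p. Among single features of any kind, 32.5% did not overlap. The acinar and duct sums were lower after, the intestinal, hepatocyte and inhibitor sums were higher after, and the islet sum overlapped. Each sum follows its most abundant features more than the rest. With the most abundant feature of each list left out, the acinar, duct and hepatocyte sums overlapped between the stages. The intestinal and inhibitor sums still did not, the intestinal one by a small margin. Keratin 19 alone made up 233 of the mean duct sum of 303 FPKM after and 310 of 403 FPKM before. The median log2 fold change was -0.25 for acinar, -0.61 for duct, 0.11 for intestinal, 0.27 for hepatocyte and -0.18 for inhibitor features. The largest part of the acinar sum was a feature described as phospholipase A2, at 3045 to 4083 FPKM after and 4616 to 7076 FPKM before (-0.79, adjusted p = 0.0591). CUZD1, a zymogen granule protein, measured 1073, 1234 and 1852 FPKM after and 1209, 1460 and 1086 FPKM before (0.12, adjusted p = 0.790), and PDIA2, a protein-folding enzyme of acinar cells, measured 806 to 1043 FPKM after and 824 to 1076 FPKM before. PTF1A, the transcription factor that defines acinar fate, measured 20.3 to 24.4 FPKM after and 23.5 to 31.2 FPKM before (-0.25, adjusted p = 0.456). ERP27 was higher in every after library without a call, at 92.0 to 157 FPKM after and 52.8 to 66.8 FPKM before (0.90, adjusted p = 0.0681). Syncollin, a zymogen granule protein, was the 1 acinar marker of 15 features that passed, against 8.64% of all features. It measured 501, 585 and 460 FPKM after and 1068, 1013 and 828 FPKM before and fell by 0.91 in log2 terms (adjusted p = 0.0238), a call kept in 1 of 6 fits with a library left out (highest adjusted p 0.0835, without after replicate 3). Enteropeptidase, the activator of trypsinogen, was counted in this list although it is a product of the gut wall. It measured 9.35, 0.99 and 3.53 FPKM after and 43.6, 31.6 and 15.97 FPKM before (-2.68, adjusted p = 0.0506). The sums without it still did not overlap (exact permutation p = 0.1), but so small a part could hardly have changed them. The phospholipase A2 feature measured 4083, 3045 and 3193 FPKM after and 7076, 6239 and 4616 FPKM before. Without it the acinar sums overlapped between the stages.

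Markers of the other tissues near the pancreas were far lower than the members. Islet markers other than pancreatic hormone summed to 344 to 362 FPKM after and 228 to 494 FPKM before, with 0 of 7 features called and before replicate 3 the highest. Of 12 islet genes 5 were measured beside the hormone, led by somatostatin, and PDX1, NKX6-1 and PAX6 stayed below the filter. Duct markers were led by keratin 19, EPCAM and mucin-1. They summed to 254 to 364 FPKM after and 377 to 425 FPKM before, with 0 of 7 features called. The intestinal list was led by a trefoil factor and pepsinogen, which are not particular to the intestine. It summed to 524 to 603 FPKM after and 315 to 477 FPKM before, with 1 of 12 features higher (a sucrase-isomaltase feature) and 1 lower (villin-1). Of 13 intestinal genes 7 were measured. Among them, cadherin-17 measured 9.76 to 17.6 FPKM after and 9.40 to 20.8 FPKM before. Intestinal fatty acid-binding protein measured 2.85 to 10.8 FPKM after and 0.98 to 33.1 FPKM before. Lactase, aminopeptidase N, meprin and gastrin stayed below the filter. No feature was described as CDX1 or CDX2, which mark intestinal cells, but a missing description does not show that a transcript was absent. At an unadjusted p under 0.05, limma gave 1 of the 7 islet and 1 of the 7 duct features, against 10788 of the 40548 features tested. In the other lists it gave 8 of 15 acinar, 6 of 15 hepatocyte, 4 of 12 inhibitor and 3 of 12 intestinal features. The part that islet, duct and intestinal tissue play in the results was not tested.

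**Figure D5:**
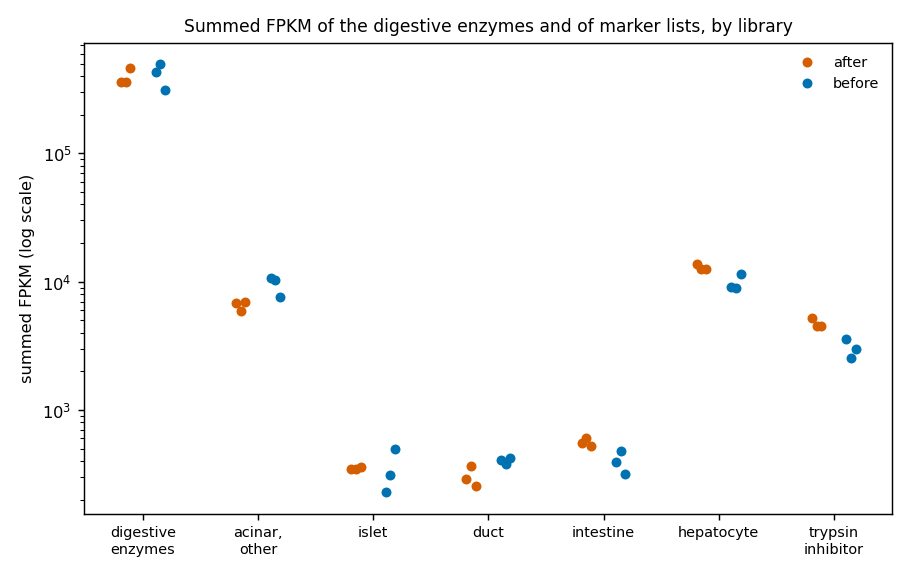
Summed FPKM on a log axis of the digestive enzyme features and of 6 marker lists, with a point per library (after in orange on the left, before in blue on the right of each pair). The digestive enzymes lie between 310015 and 496926 FPKM, hepatocyte and other acinar markers lie between 5945 and 13744 FPKM, and islet, duct and intestinal markers lie at or below 603 FPKM.

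The list of plasma and tissue inhibitors of trypsin was measured by 12 features for 6 of 7 list genes. The 5 features of inter-alpha-trypsin inhibitor were heavy chains, matched by name, which are not the part that inhibits trypsin. The sum of the list, heavy chains included, was 5255, 4524 and 4548 FPKM in the after libraries. It was 3600, 2561 and 2972 FPKM in the before libraries, without overlap (exact permutation p = 0.1, the smallest possible, adjusted over 6 lists p = 0.12). AMBP, which yields the inhibitor bikunin and is made by the liver, made up the largest part of the sum. It measured 3248, 2624 and 2604 FPKM after and 1743, 1270 and 1398 FPKM before. It was the 1 feature of 12 called higher (0.95, adjusted p = 0.0235), against 4.64% of all features. The call was kept in 1 of 6 fits with a library left out (highest adjusted p 0.0763, without after replicate 2). The next most abundant features, described as inter-alpha-trypsin inhibitor heavy chain H2, overlapped and were not called (0.43 and 0.85, adjusted p = 0.364 and 0.182). Over the 12 features the median log2 fold change was -0.18. The members exceeded this inhibitor list 83.8 ± 17.1 times after and 139 ± 48.0 times before (exact permutation p = 0.1, the smallest possible, adjusted over 6 ratios p = 0.2). Within the hepatocyte list 3 of 15 features were called higher, against 4.64% of all features. They were transthyretin, albumin and the minor of 2 apolipoprotein A-I features, and 0 features were called lower. Hemopexin and HPD were lower in every after library without a call (-1.33 and -0.69, adjusted p = 0.0517 and 0.0833). The most abundant features, apolipoprotein A-I, fibrinogen alpha and fibrinogen gamma, were not called (0.83, 0.46 and 0.67, adjusted p = 0.199, 0.421 and 0.0928). Albumin and the minor apolipoprotein A-I feature each kept the call in 3 of 6 fits with a library left out. Transthyretin, a thyroid hormone carrier, measured 1106, 1387 and 1279 FPKM after and 139, 151 and 41.9 FPKM before (3.69, adjusted p = 0.0108) and held without each library in turn.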

How the data were processed

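In all, 6 libraries of liver RNA were analysed, 3 from each stage. Per the labels' protocols, RNA was taken up on poly-T beads, fragmented, copied with random primers and sequenced from both ends by Illumina HiSeq. The authors deposited FPKM values of transcript clusters with protein descriptions. The tools for assembly, alignment and quantification are not given here. No genome was used and no sequence is shown. Since FPKM are normalized values, a count model was not applied. Without transcript lengths the fragments behind a value are unknown and no counting interval can be given.

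Features that reached 1 FPKM in 3 or more libraries were tested with limma 3.58.1 in R 4.3.3 (lmFit, eBayes with trend) on log2(FPKM + 1), two-sided, after minus before, with Benjamini-Hochberg adjustment over all 40548 features and a threshold of 0.05. The scale understates the change of low features. Per-library sums were compared with exact permutation tests in scipy 1.17.1. The fit was first tested on simulated data, where it missed most of the smaller changes. Far fewer features were changed there than were called here, which makes the adjustment stricter, so that miss rate does not carry over. A feature that did not pass is still not shown to be unchanged. Alternatives were other pseudocounts, filters and scalings, eBayes without trend, a replicate block, each library left out and features summed by description.

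Members, classes and marker lists were chosen with earlier results of these data known. Named features are every member past the threshold, the 3 most abundant and the most changed of each class and, among markers, the 3 most abundant of each list. Others, among them the called markers outside that rule, were named after their values were seen. The class rule was corrected after the descriptions were seen, so that chymotrypsin-like elastases count as elastases and amylase 2B as an amylase. Markers were matched by words in the leading description.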

Additional observations from a re-analysis of the deposited data

How the results depend on the processing

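The carboxypeptidase increases, 4 of 4 members called higher, kept that count under pseudocounts of 0.1 and 0.5, a 5 FPKM filter, 3 other scalings and eBayes without trend, and gave 3 without a filter. With features of the same description summed, 2 were called higher, both carboxypeptidases, and 3 lower. The decreases numbered 5, against 3 with a pseudocount of 0.1, 2 without a filter, 9 with the 5 FPKM filter, 3 with median-of-ratios scaling and 3 with eBayes without trend. The share called over all features was 8.64% as reported, and under these settings 6.46%, 0.958%, 22.5%, 11.7% and 8.11% in that order. Leaving out each library in turn gave 1 to 4 higher (1 to 4 carboxypeptidases) and 2 to 5 lower. The samples share only replicate numbers: deviations from the stage means of same-numbered libraries correlated at -0.00489, -0.0387 and -0.0876, no library correlated best with its own number, and with the replicate number as a replicate block 1 member was called higher, a carboxypeptidase, and 0 lower, with 339 calls over all features. Leaving out the progenitor factor, the hormone and the chitinase could change neither count, since none of them was called. The median log2 fold change of the members lay between -0.49 and -0.08.

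The difference in the members' share, -0.0519 percentage points, lay between -3.46 and 2.67 with a library left out and was above 0 in 4 of these 6 cases. The trypsin share difference lay between -3.64 and 0.764, above 0 without before replicate 2. Among the uncalled members named by the rule the sign turned for chymotrypsin C (0.023 with quantile normalization, -0.35 to 0.12 with a library left out) and its minor feature Cluster-8914.19107 (-3.52 to 0.22), elastase 1 (-0.14 to 0.21), elastase 2A (-0.042 to 0.39), pancreatic lipase (0.0021 with quantile normalization) and the chitinase (-0.42 to 1.28). It also turned for 5 further members, Cluster-8914.36748 (-2.74 to 0.32), Cluster-8914.29271 (-0.46 to 0.14), Cluster-8914.33002 (-0.33 to 0.13), Cluster-8914.32326 (-0.07 to 0.21) and Cluster-8914.2386 (-0.04 to 0.78). The causes were not tested. Of the other results for named members, 370 kept their direction and side of the threshold, 44 lost it and 8 gained it. The unknown depth limits features near 1 FPKM most.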
